A study of Homo sapiens with 2 samples.

Results

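The genes described here are 9 genes of the NRF2 antioxidant programme: its transcription factor NFE2L2 (the gene of NRF2), the inhibitor KEAP1, the heme-degrading enzyme gene HMOX1, the quinone reductase gene NQO1, 4 genes of the thioredoxin and peroxiredoxin system (TXN, TXNRD1, SRXN1 and PRDX1), and PGD, an enzyme gene of the pentose phosphate pathway. They were taken by gene symbol from a list, and all 9 were found among the 25268 symbols of the deposited tables. The 9 genes and the lists below were chosen with earlier results of these data known. Their counts beside the all-gene shares are therefore description only. PGD is the single pentose phosphate enzyme on the list, so other enzymes of that pathway are described beside it. RNA was sequenced from C4-2B MDVR cells, which derive from the prostate cancer line LNCaP, are castration-resistant and resist enzalutamide. The Indocin library came from cells given 20 µM Indocin (indomethacin, a cyclooxygenase inhibitor) for 3 days, and the DMSO library from cells given the DMSO vehicle for 3 days. The medium of both cultures contained 20 µM of the antiandrogen enzalutamide, so no enzalutamide-free state was compared. Each group was 1 library of 1 resistant line, so the differences below could not be checked against replicates, and they carry no p-value and no SD.

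NRF2 is a transcription factor that pairs with small MAF proteins and binds the antioxidant response element, a short DNA motif. In unstressed cells KEAP1 holds NRF2 and presents it to a CUL3 ubiquitin ligase, so NRF2 activity is set largely by the stability of its protein, which mRNA levels do not measure. When oxidants or electrophiles modify KEAP1, NRF2 accumulates, and genes for thioredoxin and glutathione reduction, quinone and heme breakdown and NADPH supply are transcribed.

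Levels were given as FPKM, which divides fragments by the length of the transcript and the size of the library and so allows genes of different length to be set side by side. FPKM summed to 583096 in the Indocin library and 617510 in the DMSO library, and 12078 genes reached 1 FPKM with Indocin and 11935 with DMSO. The number of reads was not recovered, so the absolute depth was unknown and no counting interval was computed. The steps of the lowest values put the worth of 1 fragment at nearly equal FPKM in each library: of 1335 genes averaging under 0.05 FPKM, 45.5% gave a quotient of the libraries that was, within 1%, 1.014 times a fraction of small integers, while other factors took a median of 2.55%. All 11 luminal prostate markers were above the minimum mean of 1 FPKM used below (summed level 1784 FPKM in the Indocin library and 2151 FPKM in the DMSO library), and the part of this difference in the results below was not tested. None of 3 basal and 4 neuroendocrine markers reached that mean. Of 9 stromal and endothelial markers COL1A1 alone did (4.80 FPKM with Indocin and 4.54 FPKM with DMSO), and of 4 immune markers CD68 alone (5.86 FPKM with Indocin and 6.51 FPKM with DMSO), while PTPRC, the pan-leukocyte gene, stood at 0.0233 FPKM in the Indocin library and was listed at 0 in the DMSO library.

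HMOX1 was the gene of the 9 that differed most between the libraries, followed by TXNRD1, and NFE2L2 and PGD came next at similar ratios. NQO1 was slightly higher in the Indocin library, and SRXN1, TXN, PRDX1 and KEAP1 lay near the bulk of all genes. The plot of levels shows the order of the genes and the gap between the libraries for each.

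**Figure D1:**
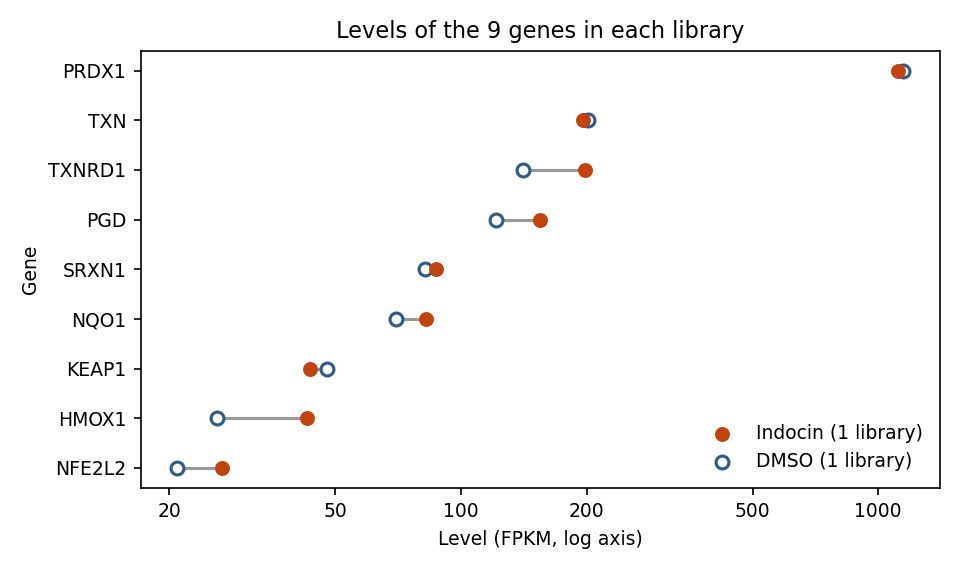
Levels of the 9 genes in FPKM on a log axis, with a filled point for the Indocin library and an open point for the DMSO library (1 library each, so no error bars). HMOX1 shows the widest gap (42.6 FPKM with Indocin and 26.0 FPKM with DMSO), while the points of TXN and PRDX1 nearly coincide.

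The regulators were among the lower of the 9 genes. Of all genes that averaged at least 1 FPKM, 67.8% had a lower mean than NFE2L2 and 82.6% a lower one than KEAP1. NFE2L2 stood at 26.7 FPKM in the Indocin library and 20.9 FPKM in the DMSO library, 28.1% higher with Indocin, and was the lowest of the 9 genes in both. KEAP1, the substrate adaptor that marks NRF2 for degradation, stood at 43.4 FPKM in the Indocin library and 47.8 FPKM in the DMSO library, 0.909 of its DMSO level. The ratio of NFE2L2 to KEAP1 mRNA, from which any common scaling of a library cancels, was thus 0.616 in the Indocin library and 0.437 in the DMSO library. On the scale used for all genes below, log2((Indocin FPKM + 1)/(DMSO FPKM + 1)), called the log2 ratio from here on, NFE2L2 stood at 0.34 and KEAP1 at -0.13. At low FPKM this scale shrinks the fold.

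HMOX1, heme oxygenase 1, which opens heme to biliverdin, iron and carbon monoxide, stood at 42.6 FPKM in the Indocin library and 26.0 FPKM in the DMSO library. Its level was 63.8% higher with Indocin, a log2 ratio of 0.69, and 189 of the 11960 genes that averaged at least 1 FPKM had a higher one. It was the lowest of the 9 genes but NFE2L2 in both libraries. HMOX2, the constitutive isozyme, stood at 35.9 FPKM in the Indocin library and 40.4 FPKM in the DMSO library. The ratio of HMOX1 to HMOX2 was 1.19 in the Indocin library and 0.644 in the DMSO library, so the inducible form was the higher of the pair with Indocin and the lower with DMSO.

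NQO1, a flavoenzyme that reduces quinones to hydroquinones and is widely used as a readout of NRF2, stood at 82.5 FPKM in the Indocin library and 69.9 FPKM in the DMSO library (log2 ratio 0.24). Its relative NQO2 differed slightly more, with 28.4 FPKM in the Indocin library and 21.6 FPKM in the DMSO library (0.38). NQO1 was the higher of the pair in both libraries, 2.90 times NQO2 with Indocin and 3.23 times with DMSO.

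TXNRD1, the cytosolic selenoenzyme that uses NADPH to reduce thioredoxin, stood at 198.6 FPKM in the Indocin library and 141.1 FPKM in the DMSO library (log2 ratio 0.49, 40.8% higher with Indocin). TXN, cytosolic thioredoxin and the enzyme's main substrate, stood at 195.6 FPKM in the Indocin library and 201.1 FPKM in the DMSO library (-0.04). The reductase mRNA was therefore at 1.02 times that of its substrate in the Indocin library and 0.702 times in the DMSO library. TXN and TXNRD1 were nearly level in the Indocin library, so their order there is uncertain. The mitochondrial counterparts lay close together. TXNRD2 stood at 34.5 FPKM with Indocin and 36.9 FPKM with DMSO, and TXN2 at 92.2 FPKM with Indocin and 100.6 FPKM with DMSO. TXNRD3, a related reductase, stood at 7.94 FPKM in the Indocin library and 6.09 FPKM in the DMSO library (0.34). The log2 ratio of TXNRD2 was -0.09 and that of TXN2 -0.12.

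PRDX1, a thioredoxin-dependent peroxidase of the cytosol, was the most abundant of the 9 genes, with 1118 FPKM in the Indocin library and 1149.6 FPKM in the DMSO library (log2 ratio -0.04). It held 47.0% of the summed FPKM of the 6 peroxiredoxin genes in the Indocin library and 46.9% in the DMSO library. SRXN1, sulfiredoxin, which repairs overoxidised peroxiredoxins, stood at 87.3 FPKM in the Indocin library and 82.1 FPKM in the DMSO library (0.09). The ratio of SRXN1 to PRDX1 was 0.0781 in the Indocin library and 0.0714 in the DMSO library. Among the other peroxiredoxins PRDX2, PRDX3, PRDX4 and PRDX6 had log2 ratios between -0.11 and -0.15. PRDX5, found in mitochondria, peroxisomes and cytosol, was the exception at 212.6 FPKM in the Indocin library and 161.2 FPKM in the DMSO library (0.40). Of the 6 peroxiredoxins 5 were below 0 as deposited and 4 after scaling to a common upper quartile or a common sum, where PRDX1 changed sign. PRDX1 and TXN have processed pseudogenes that can share reads with them, so small differences in these genes are uncertain.

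PGD, 6-phosphogluconate dehydrogenase, which makes NADPH in the oxidative branch of the pentose phosphate pathway, stood at 154.3 FPKM in the Indocin library and 121.3 FPKM in the DMSO library (log2 ratio 0.34, 27.2% higher with Indocin). PGLS, the lactonase of the same branch, stood at 32.6 FPKM with Indocin and 27.0 FPKM with DMSO (0.26). The enzymes of the non-oxidative branch interconvert sugar phosphates. Transketolase, TKT, stood at 361.1 FPKM in the Indocin library and 357.7 FPKM in the DMSO library (0.01), and transaldolase, TALDO1, at 218.4 FPKM with Indocin and 220.3 FPKM with DMSO (-0.01). The isomerase RPIA (14.5 FPKM with Indocin and 17.9 FPKM with DMSO, -0.29) and the epimerase RPE (11.6 FPKM with Indocin and 12.3 FPKM with DMSO, -0.08) were at lower levels. Of 13 pathway genes beside PGD 12 reached a mean of 1 FPKM. None of these differed by 1.5-fold, while 2.19% of all genes with this mean were higher by as much and 0.753% lower. Of the 12, 6 were above 0 and 6 below, and the median log2 ratio was 0.00. TALDO1 changed sign under each rescaling. The furthest apart were ribokinase, RBKS (2.86 FPKM with Indocin and 1.87 FPKM with DMSO, 0.43), H6PD, the oxidative enzyme of the endoplasmic reticulum (0.31), sedoheptulokinase, SHPK (-0.33), and the phosphoribosyl pyrophosphate synthetase PRPS2 (-0.30).

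To place the 9 genes among the rest, genes averaging 1 FPKM or more over the 2 libraries were taken as tested, with short RNA genes left out. The 9 genes all passed this minimum. With Indocin, 2.19% of the 11960 tested genes were higher by 1.5-fold or more, and 0.753% were lower by as much. Of the 9 genes 1, HMOX1, was higher by this measure and none lower, a count that rests on a single gene. Past a log2 ratio of 0.32 in size, 6.91% of tested genes were higher and 7.30% lower, and of the 9 genes 4 (HMOX1, TXNRD1, PGD and NFE2L2) were higher and none lower. The median log2 ratio of the 9 genes was 0.24 and that of all tested genes -0.03, with quartiles of -0.15 and 0.11. The middle 90% of tested genes lay between -0.37 and 0.39, so HMOX1 and TXNRD1 were outside this range and the other 7 inside it. TXNRD1 had 365 tested genes above it, PGD 739, NFE2L2 746, NQO1 1414 and SRXN1 3389, while TXN and PRDX1 lay near the middle with 6365 and 6381. KEAP1 had 8606 above it and lay inside the quartiles of all tested genes, with 49.6% of them further from 0. In numbers, 262 tested genes were past 1.5-fold upward and 90 downward, an upward share of 74.4%, and this share was 84.6% (323 upward and 59 downward) after scaling to a common upper quartile.

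**Figure D2:**
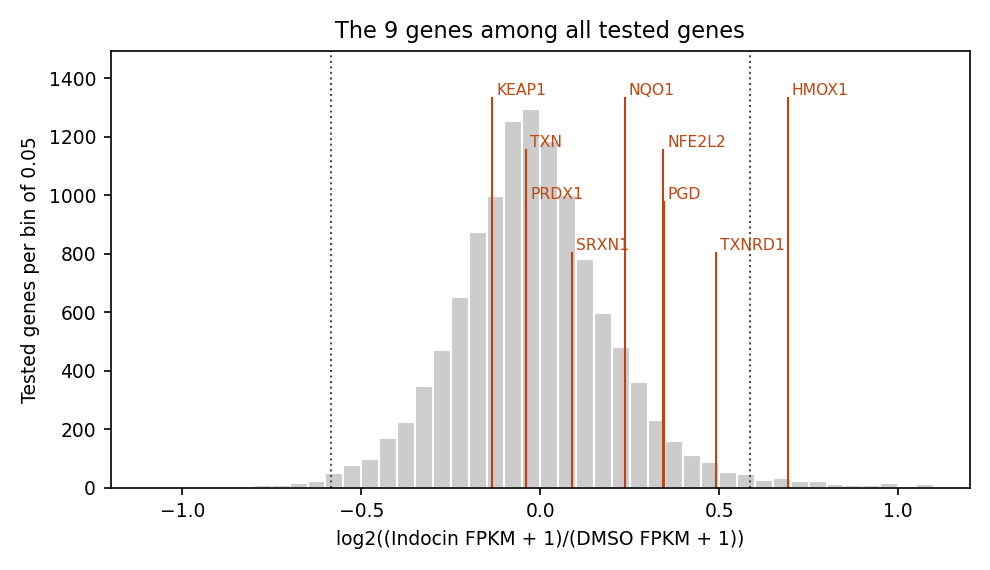
Distribution of the log2 ratio, Indocin over DMSO, over the 11960 tested genes in bins of 0.05, with a red line for each of the 9 genes (line height only separates the labels) and dotted lines at 1.5-fold. HMOX1 (0.69) alone lies past the upper dotted line, and 58 tested genes lie beyond the axis ends (1.2 in size).

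Signs were checked under other scalings, which move every gene. Over all tested genes 5355 were above 0 and 6605 below as deposited, 7049 and 4911 at a common upper quartile (median 0.04) and 6311 and 5649 at a common sum (median 0.01), so sign counts of any list, here and elsewhere, stand beside these. All of the 9 genes but TXN and PRDX1 had the same sign under each of 9 other settings. Of these settings, only the pseudocounts, the centring on the all-gene median and the library scalings could move the ratio of a gene. Filters on level and on short RNA genes only changed which genes were tested. HMOX1 ranged from 0.62 to 0.76 and was past 1.5-fold in each. TXNRD1 ranged from 0.48 to 0.56 and stayed short of it. TXN and PRDX1 were above 0 after scaling to a common upper quartile or sum, so neither can be called lower or higher.

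**Figure D3:**
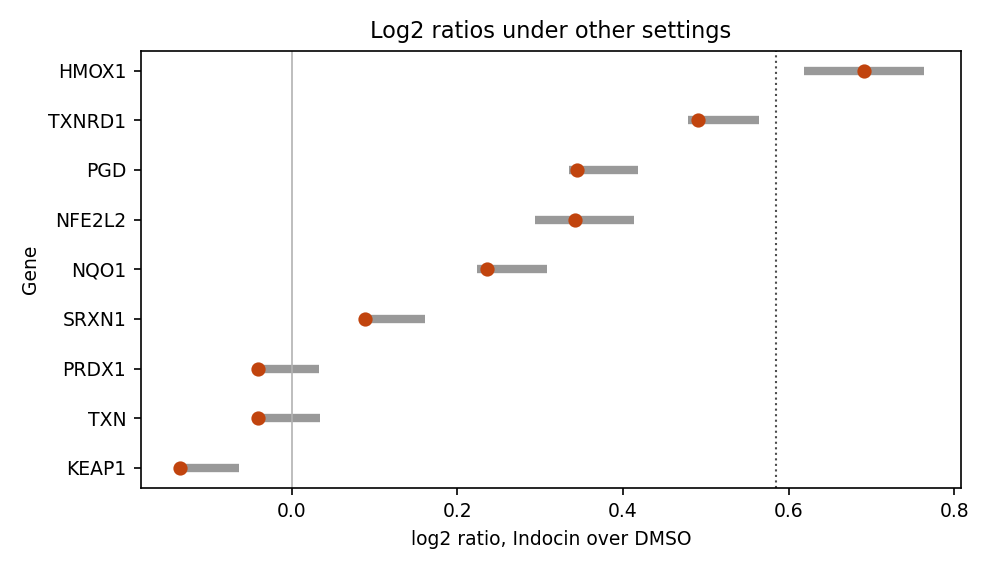
Log2 ratio, Indocin over DMSO, of the 9 genes as reported (points) and the range over 9 other settings (grey bars), with a dotted line at 1.5-fold. The bars reflect pseudocounts, centring and scalings, since filters do not move the ratio of a gene. The bars of TXN and PRDX1 cross 0, and that of HMOX1 (0.62 to 0.76) lies wholly past 1.5-fold.

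Short sequences around the antioxidant response element motif are shown because the members described above differ in whether their promoters hold it. The core motif TGACNNNGC was searched on both strands in the 250 bases upstream of each RefSeq start site in a GRCh38.p14 table, a build other than that of the FPKM values. The table held 10 windows for 7 of the 9 genes, HMOX1 and PRDX1 not among them, and 35116 windows in all. The core lay in 4 of the 10 windows, of KEAP1, TXNRD1 and PGD, against 10.9% of all windows. It lay in none for NFE2L2, NQO1, TXN and SRXN1, which says only that these letters are not in that stretch. Each sequence below is written 5′ to 3′ on the strand that carries the motif, with the core in capitals and 10 flanking bases on each side.
TXNRD1, second start site, chr12:104286920-104286948, minus strand: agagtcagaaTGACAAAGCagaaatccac
TXNRD1, first start site, chr12:104215670-104215698, plus strand: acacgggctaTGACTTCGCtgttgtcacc
PGD, chr1:10398853-10398881, minus strand: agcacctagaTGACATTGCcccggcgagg
KEAP1, chr19:10502784-10502812, plus strand: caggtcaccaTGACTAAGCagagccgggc
KEAP1, chr19:10502807-10502835, minus strand: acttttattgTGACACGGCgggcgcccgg
GCLM, chr1:93909446-93909474, plus strand: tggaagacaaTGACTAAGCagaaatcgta
ME1, chr6:83431170-83431198, minus strand: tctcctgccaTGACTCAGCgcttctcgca

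Among the other NRF2 targets described below, the table held 38 windows for 29 genes. The core lay in 9 of these windows, of 9 genes, beside 10.9% of all windows. Of these 9 genes GCLM and ME1 are shown because they alone were past 1.5-fold with Indocin (log2 ratios 0.63 and 1.09). The others were IDH1 (0.38), EPHX1 (0.22), ABCB6 (0.06), ABCC4 (0.02) and CBR1 (-0.24), and GPX2 and GSTP1, which were below 1 FPKM on average. SLC7A11, TRIM16 and TRIM16L, also past 1.5-fold, had no core in a window or had no window. Genes with the core lay on both sides of 0, and the part of the core in the ratios was not tested. The cores of KEAP1 and GCLM on the plus strand were the same 9 letters, TGACTAAGC. GCLM was higher in the Indocin library, and KEAP1 lay inside the quartiles of all tested genes. In the GENCODE 29 annotation the sites of KEAP1, GCLM and the second TXNRD1 start fell in the 5′ UTR exon of a longer transcript, that of PGD in an intron of a longer transcript, and those of ME1 and the first TXNRD1 start upstream of every annotated transcript of the gene. The element TGATGCAA, bound by ATF4 with C/EBP partners, lay in none of the 10 windows and in 0.772% of all windows. At so low a share 10 windows are too few to show a lack of the element, and HMOX1 and PRDX1 had no window. These matches describe letters, and no binding was measured.

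Among 14 genes of NRF2 control beside NFE2L2 and KEAP1, all measured, none differed by 1.5-fold, beside 2.19% and 0.753% of all tested genes. Of the 14, 7 were above 0 and 7 below (8 and 6 at a common upper quartile, where CUL3 changed sign). Their median log2 ratio was 0.02. Past a log2 ratio of 0.32 in size, 1 was higher (NFE2L1) and 3 lower (PGAM5, NFE2L3 and MAFK), beside 6.91% and 7.30% of all tested genes. The highest was NFE2L1, a related factor that drives proteasome genes, with 108.6 FPKM in the Indocin library and 75.3 FPKM in the DMSO library (0.52, and 0.60, past 1.5-fold, at a common upper quartile). NFE2L3, the third relative, stood at 8.64 FPKM in the Indocin library and 11.2 FPKM in the DMSO library (-0.34). SQSTM1, the autophagy receptor p62 that sequesters KEAP1, stood at 192 FPKM with Indocin and 155.8 FPKM with DMSO (0.30). The mitochondrial phosphatase PGAM5, a KEAP1 partner, was the lowest of the list, with 63.5 FPKM in the Indocin library and 84.3 FPKM in the DMSO library (-0.40). BACH1, the repressor that competes for antioxidant response elements at HMOX1, stood at 3.53 FPKM with Indocin and 2.95 FPKM with DMSO (0.20), and its ratio to NFE2L2 was 0.132 in the Indocin library and 0.141 in the DMSO library. The small MAF genes went in different directions, with MAFG at 17.7 FPKM with Indocin and 15.2 FPKM with DMSO (0.21), MAFF at 2.72 FPKM with Indocin and 2.53 FPKM with DMSO (0.07) and MAFK at 14.5 FPKM with Indocin and 18.7 FPKM with DMSO (-0.34).

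Other targets of NRF2 were a mixed group. Of 38 listed genes 31 reached a mean of 1 FPKM, and 5 of these were higher by 1.5-fold or more and none lower by as much, beside 2.19% and 0.753% of all tested genes. The median log2 ratio was 0.22, 23 lay above 0 and 8 below as deposited, and 27 and 4 at a common upper quartile or sum, where ABCC1, FTL, GCLC and TALDO1 changed sign. These scalings also raised the all-gene count above 0, as given above. The cystine transporter gene SLC7A11 stood at 28.97 FPKM in the Indocin library and 2.62 FPKM in the DMSO library (3.05). Malic enzyme, ME1, which makes NADPH, stood at 41.5 FPKM with Indocin and 19.0 FPKM with DMSO (1.09). TRIM16 (18.0 FPKM with Indocin and 9.91 FPKM with DMSO, 0.80) and TRIM16L (13.8 FPKM with Indocin and 8.47 FPKM with DMSO, 0.64) are close paralogs that can share reads. GCLM, the modifier subunit of glutamate-cysteine ligase, stood at 33.5 FPKM in the Indocin library and 21.3 FPKM in the DMSO library (0.63), while the catalytic subunit GCLC stood at 6.95 FPKM with Indocin and 7.11 FPKM with DMSO (-0.03). The ratio of GCLM to GCLC was 4.82 in the Indocin library and 3.00 in the DMSO library. The lowest were the carbonyl reductases CBR3 (11.9 FPKM with Indocin and 16.9 FPKM with DMSO, -0.48) and CBR1 (62.0 FPKM with Indocin and 73.3 FPKM with DMSO, -0.24). Without SLC7A11 and ME1 the median was 0.21, with 3 of 29 genes higher by 1.5-fold or more.

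The thioredoxin and peroxiredoxin genes beside TXN, TXNRD1, SRXN1 and PRDX1 had a median log2 ratio of -0.09 over 19 measured genes of 20. None differed by 1.5-fold, beside 2.19% higher and 0.753% lower of all tested genes. Of the 19, 7 were above 0 and 12 below (8 and 11 under each rescaling, where TXNL1 changed sign). The highest beside PRDX5 was MSRA, a methionine sulfoxide reductase (4.55 FPKM with Indocin and 3.31 FPKM with DMSO, 0.37). The lowest were the glutaredoxins GLRX2 (45.5 FPKM with Indocin and 58.1 FPKM with DMSO, -0.35) and GLRX (6.51 FPKM with Indocin and 8.32 FPKM with DMSO, -0.31), which reduce disulfides with glutathione. TXNIP, the inhibitor that binds thioredoxin, stood at 82.1 FPKM in the Indocin library and 64.4 FPKM in the DMSO library (0.35).

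A list of other genes linked to NADPH supply, not all of which make NADPH, had 11 measured genes of 14 listed (median 0.18). Of the 11, 4 were 1.5-fold or more higher with Indocin and none as much lower, beside 2.19% and 0.753% of all tested genes. These were ALDH1L2 (5.86 FPKM with Indocin and 1.19 FPKM with DMSO, 1.65), MTHFD2 (178.8 FPKM with Indocin and 82.0 FPKM with DMSO, 1.116), ME1 and MTHFD1L (35.2 FPKM with Indocin and 20.9 FPKM with DMSO, 0.73). Apart from ME1 they encode mitochondrial enzymes of folate metabolism. The cytosolic folate enzyme MTHFD1 stood at 70.1 FPKM in the Indocin library and 85.2 FPKM in the DMSO library (-0.28) and the mitochondrial isocitrate dehydrogenase IDH2 at 124.9 FPKM with Indocin and 142.9 FPKM with DMSO (-0.19). In the glutathione list 6 of 23 measured genes, of 29 listed, were past 1.5-fold on the higher side and none on the lower (median 0.14), beside the same 2.19% and 0.753%. They were CHAC1, which degrades glutathione (88.4 FPKM with Indocin and 5.07 FPKM with DMSO, 3.88), SLC7A11 and its heavy chain SLC3A2 (226.5 FPKM with Indocin and 85.2 FPKM with DMSO, 1.40), GPX8 (7.07 FPKM with Indocin and 3.76 FPKM with DMSO, 0.76), GCLM and GSTA1 (4.37 FPKM with Indocin and 2.52 FPKM with DMSO, 0.61). The lowest were CHAC2 (-0.30) and GSTO1 (-0.21).

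In the remaining lists no gene averaging at least 1 FPKM passed 1.5-fold as deposited. Among 12 heme and iron genes beside HMOX1 the median was 0.03. The iron storage gene FTH1 came nearest, with 2458 FPKM in the Indocin library and 1649.8 FPKM in the DMSO library (0.58), and it was past 1.5-fold with centred ratios (0.60), a common upper quartile (0.65) or a common sum (0.62). FTH1, like PRDX1, has many processed pseudogenes. The heme transporter SLC48A1 had a log2 ratio of 0.46, HMOX2 of -0.17 and the iron chaperone PCBP1 of -0.26. Over 15 measured genes of quinone and carbonyl detoxification, of 22 listed, the median was 0.10, with NQO2 (0.38) and the aldehyde dehydrogenase ALDH3A2 (0.31) highest. Over 7 genes of superoxide and peroxide removal it was -0.04, with catalase, CAT, at 54.0 FPKM with Indocin and 49.4 FPKM with DMSO (0.13), the copper chaperone CCS at 0.10, and the superoxide dismutases SOD2 and SOD3 lowest at -0.07 and -0.13. Over all 9 lists, each gene counted once, 12 of 117 measured genes were past 1.5-fold on the higher side and none on the lower, beside 2.19% and 0.753% of all tested genes, and the median was 0.06.

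**Figure D4:**
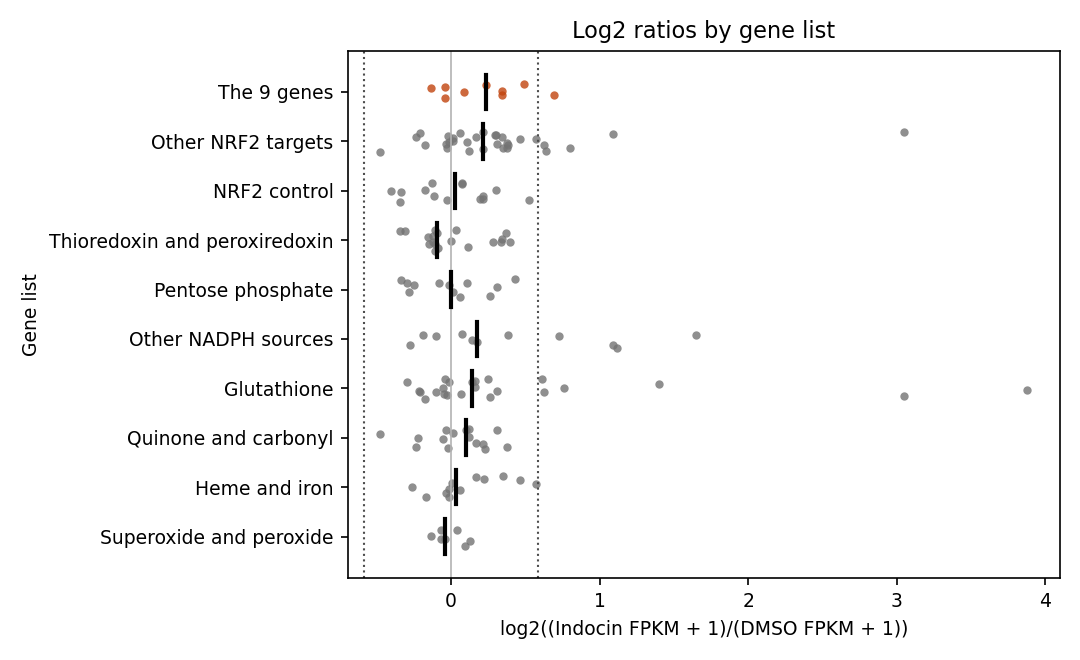
Log2 ratio, Indocin over DMSO, of each measured gene (points, spread vertically at random) in the 9 genes (red) and in 9 lists of related genes without them (grey), with list medians (black bars) and dotted lines at 1.5-fold. The points far to the right are CHAC1, SLC7A11 and ALDH1L2, and a gene of several lists appears in each. The list labelled as other NADPH sources also holds related genes that do not make NADPH.

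Several of these higher genes are also known targets of ATF4, which drives the integrated stress response, among them SLC7A11, SLC3A2, CHAC1, MTHFD2 and ALDH1L2. ATF4 stood at 689 FPKM in the Indocin library and 283.9 FPKM in the DMSO library (1.28). DDIT3 (2.18), ATF3 (2.38), TRIB3 (2.48) and ASNS (2.69), 4 genes of the same response, had higher ratios than any of the 9 genes. The part of ATF4 in the ratios of the 9 genes was not tested.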

How the data were processed

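The deposited values were FPKM per gene symbol from strand-specific mRNA libraries, 1 library per group, per the file headers and the labels' protocols. Per the submitters' processing notes, bcl2fastq, TopHat, Cufflinks, StringTie and Cuffnorm were used with GRCh37 and hg19. Not given in the sources used here are the tools' roles and versions, the annotation and whether strand was used. Every line had the status OK. A listed 0 can be a failed estimate and was not read as absence.

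A count model needs counts, which FPKM are not, and with 1 library per group no test exists. Log2 ratios were computed as log2((Indocin FPKM + 1)/(DMSO FPKM + 1)) for 11960 genes averaging 1 FPKM or more, after 2067 short RNA genes were removed by how their symbols start. Members of lists were counted at 1.5-fold. The calculation was tested on simulated 2-fold changes in genes well above the minimum mean, with an assumed noise. That checks the arithmetic only and says nothing of the real noise between these libraries. The 9 genes, the lists (written from general knowledge) and the rule for named genes (all 9, their counterparts, other pentose phosphate enzymes, and of each list the genes past 1.5-fold and the 2 highest and 2 lowest) were chosen with earlier results of these data known. BACH1, the small MAF genes, GCLC, TXNIP and the motif-bearing targets were named after their values were seen, as were the pairs set in ratio and the motifs searched. Promoter windows came from RefSeq (GRCh38.p14), and GENCODE 29 gave the annotation. Alternatives were other pseudocounts, filters, scalings and thresholds. Python 3.11.15, numpy 2.4.6, pandas 2.3.3 and matplotlib 3.10.9 were used. Some genes of these lists are counted but not reported here by name.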

Additional observations from a re-analysis of the deposited data

How the results depend on the processing

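The count of the 9 genes at least 1.5-fold higher was 1, and that of genes at least 1.5-fold lower 0, under each of 9 other pseudocounts, filters and scalings. The 9 genes passed every filter with unchanged ratios, so only pseudocounts, centring and scalings could move these counts. Past a log2 ratio of 0.32 in size 4 of the 9 were higher, beside 6.91% of all tested genes. At 2-fold 0 of the 9 were higher, beside 90 of the 11960 tested genes. The median log2 ratio of the 9 genes ranged from 0.22 to 0.31. Of the 117 other pathway genes measured, 24 were higher and 6 lower past 0.32, beside 6.91% and 7.30% of all tested genes. At 2-fold 6 of them were higher. Over all tested genes, 420 were higher and 189 lower with a pseudocount of 0.1 FPKM, 126 and 36 with 5 FPKM, and 168 higher with a mean of at least 5 FPKM. With the same upper quartile 59 were lower. Past 0.32, 827 were higher and 873 lower, and at 2-fold 90 and 5. With a pseudocount of 5 FPKM, GCLM (0.55), TRIM16L (0.48), GPX8 (0.46) and GSTA1 (0.32) were no longer past 1.5-fold, and with 0.1 FPKM RBKS (0.59) was. The same sum was taken without short RNA genes and the noncoding RNA BCYRN1. No paired analysis was possible because each group had 1 library. The absolute read number is unknown, so the precision of genes at a few FPKM, such as BACH1, GSTA1 and ALDH1L2, cannot be stated.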

Other observations

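Of the 38 listed NRF2 targets 7 lay below the minimum mean of 1 FPKM and belong to no count above. GSTP1, a glutathione transferase gene known to be silenced in most prostate cancers, was listed at 0 in both libraries. The aldo-keto reductase AKR1C1, a frequent NRF2 target, stood at 1.33 FPKM in the Indocin library and 0.291 FPKM in the DMSO library (log2 ratio 0.85) and its close paralog AKR1C2 at 0.735 FPKM with Indocin and 0.315 FPKM with DMSO (0.40). AKR1C genes can share reads. AKR1B10 stood at 0.0807 FPKM in the Indocin library and was listed at 0 in the DMSO library, and GPX2 stood at 0.633 FPKM with Indocin and 0.695 FPKM with DMSO. The transporter genes ABCC2 (0.0471 FPKM with Indocin and 0.0370 FPKM with DMSO) and ABCC3 (0.0403 FPKM with Indocin and 0.0111 FPKM with DMSO) were lower still.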
